A study of Mus musculus with 24 samples.

Results

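The genes F12, Wfdc2, Pgpep1l, Kcnf1, Cacna1b, Cfap53, Lix1, Cdr2l and Prr5 were followed in CD4 T cells of mice that lack Trim28 in T cells (conditional knockout, CKO) and of wild-type (WT) mice. These 9 genes, of 27670 gene names on the array, were put together as tissue-foreign genes, so that trait was part of the choice and is no result. They were also selected on the values analysed here, namely a higher signal in CKO than in WT cells in each of the 3 cell states studied. For this reason the CKO and WT levels are given as a description with no test, and tests are given only for comparisons between cell states within a genotype, for the difference of such differences and for other genes. The difference of such differences is also the difference of the genotype differences used in the choice, so its p-values are not independent of it. All probes carrying one of the names, an older symbol or the RefSeq accession of a gene were taken, which gave 12 of 41174 probes. A probe was kept if the scanner software called it well above background on 3 or 4 arrays of any group. That left 11 of the 12, at least 1 for each gene, and 16489 genes in all. A level below is the log2 signal minus the 75th percentile of its array, so 0 is that percentile.

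The mice were female C57BL/6 of 6 or 7 weeks, and each group was measured on 4 arrays. Naive CD4 T cells were sorted as CD4+ CD62+ CD25- and regulatory T cells (Treg) as CD4+ CD62+ CD25+, in the spelling of the labels. The 6 groups were WT and CKO naive cells without stimulation, WT and CKO naive cells after 13 h on plates coated with anti-CD3 and anti-CD28, and WT and CKO Treg. In the labels' treatment field the CKO Treg samples are called TCR-stimulated and the WT Treg samples unstimulated, whereas their titles and the design text mention no stimulation of Treg, so genotype and this label cannot be told apart in Treg, here and in each Treg comparison below. Which promoter drove the recombinase, whether WT mice carried floxed alleles or the recombinase, and whether the 4 arrays of a group came from separate animals are not given in the sources used here; p-values therefore measure the spread between these samples, which may be technical.

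TRIM28 is a corepressor without DNA binding of its own. KRAB zinc finger proteins bring it to chromatin, where it recruits histone methyltransferase and other silencing activities, and it is best known for keeping retroelements and imprinted regions silent. Most of the 9 genes are known from other tissues: F12 encodes coagulation factor XII, a liver product that starts the contact pathway, Wfdc2 a secreted protein of epithelia with a whey acidic protein domain, Kcnf1 and Cacna1b subunits of voltage-gated channels of neurons, Cfap53 a protein of motile cilia, Lix1 a protein first described in the developing limb, and Cdr2l a relative of the cerebellar autoantigen CDR2. Pgpep1l encodes a relative of pyroglutamyl peptidase, and Prr5 a subunit of the mTORC2 kinase complex, which also acts in T cells.

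Trim28 itself, the targeted gene, was lower in CKO than in WT by 2.85-fold without stimulation, by 6.41-fold with it and by 2.95-fold in Treg; whether its probe lies in the deleted part is not known. Foxp3 was highest in the 2 Treg groups, at a mean log2 level of 3.20 in WT and 3.30 in CKO against -3.80 to -1.35 in the naive groups. Among naive cells it was higher in CKO, 1.94-fold without and 5.47-fold with stimulation (limma adjusted p = 0.00363 and 5.39e-08), as were 3 of 5 Treg markers in each naive state. In unstimulated CKO cells 2 of 6 T cell markers were lower, among them Cd3e (1.67-fold; 0.0389), and 2 of 6 CD8 and NK markers higher. The part of these in the results below was not tested. Cd4 and Cd3e were well above background on every array. The 75th percentile of signal, to which every level here is relative, ranged from 160 to 382 for naive cells, from 55.6 to 208 for WT Treg and from 32.5 to 119 for CKO Treg, so a dim gene could be seen down to a lower level on naive than on Treg arrays. Arrays of a group correlated at 0.961 or more across all probes before the filter, which are not independent replicates. WT and CKO arrays of the same state and replicate number shared a slide, which allowed differences to be taken within slides. Unstimulated arrays lay on slides 1, 3, 4 and 6, stimulated arrays on 1, 2, 4 and 5 and Treg arrays on 2, 3, 5 and 6. Slide and cell state are therefore partly confounded in the comparisons between states. The first Treg pair set a CKO sample of 7 weeks against a WT sample of 6 weeks.

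The sequence just before the transcription start is shown for 4 of the genes, F12, Lix1 and Wfdc2 because their levels moved together over the CKO arrays, and Kcnf1 because its levels did not follow F12 or Lix1. Its Pearson r over these arrays was 0.06 with F12, -0.17 with Lix1 and 0.45 with Wfdc2. The RefSeq promoter table (GRCm38.p6) held 7 of the 9 genes. Each line gives the 250 bases before the start on the gene's strand, 5′ to 3′, in lower case, with capitals for any match, on either strand, to the TATA box word TATAAA, to the GC box word GGGCGG, to TGCCGC, the core of the site of the KRAB zinc finger protein ZFP57, to the cAMP response word TGACGTCA or to the CCAAT box; no window printed held overlapping matches. They lie at chr13:55426805-55427054 (F12, minus strand), chr17:17402436-17402685 (Lix1, plus strand), chr2:164562465-164562714 (Wfdc2, plus strand) and chr12:17176889-17177138 (Kcnf1, minus strand).
F12: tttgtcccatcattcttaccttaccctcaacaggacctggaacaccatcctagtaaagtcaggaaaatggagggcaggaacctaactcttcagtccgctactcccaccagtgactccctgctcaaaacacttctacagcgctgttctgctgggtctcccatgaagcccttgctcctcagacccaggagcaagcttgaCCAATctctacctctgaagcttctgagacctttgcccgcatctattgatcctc
Lix1: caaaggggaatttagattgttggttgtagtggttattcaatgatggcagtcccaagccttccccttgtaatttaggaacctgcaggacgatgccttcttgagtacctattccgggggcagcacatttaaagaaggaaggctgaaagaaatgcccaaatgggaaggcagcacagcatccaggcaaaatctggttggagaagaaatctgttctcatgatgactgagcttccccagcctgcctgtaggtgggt
Wfdc2: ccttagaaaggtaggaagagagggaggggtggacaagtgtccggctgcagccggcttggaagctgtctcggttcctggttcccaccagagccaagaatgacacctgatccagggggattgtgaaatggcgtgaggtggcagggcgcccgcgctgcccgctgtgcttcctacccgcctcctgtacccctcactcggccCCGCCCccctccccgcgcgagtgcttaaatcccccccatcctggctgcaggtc
Kcnf1: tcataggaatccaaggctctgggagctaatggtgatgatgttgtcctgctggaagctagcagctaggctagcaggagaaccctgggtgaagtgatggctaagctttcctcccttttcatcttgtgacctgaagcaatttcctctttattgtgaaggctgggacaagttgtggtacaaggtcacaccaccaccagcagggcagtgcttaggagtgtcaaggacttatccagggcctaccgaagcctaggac
The F12 window held 1 CCAAT, beginning 53 bases before the start, and the Wfdc2 window 1 GGGCGG on the opposite strand, also beginning 53 bases before the start, while the Lix1 and Kcnf1 windows held none of the words. Of 32544 promoter windows of this length, 33.8% held CCAAT, 33.0% GGGCGG, 12.3% TATAAA, 8.75% the ZFP57 core and 1.56% the cAMP response word. No member window held any of the last 3. The ratio of observed to expected CpG dinucleotides was 0.06 for Kcnf1, 0.14 for Lix1, 0.20 for F12 and 0.53 for Wfdc2, against a median of 0.38 over all windows. Among the windows not printed it was 0.64 for Pgpep1l, 0.92 for Cacna1b, and 0.59 and 0.36 for the 2 starts of Prr5. The 9 genes thus included CpG-poor and CpG-rich promoters, and no word was common to the windows of F12, Lix1 and Wfdc2.

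Every one of the 9 genes was higher in CKO than in WT in all 3 states, as the choice required, and the CKO and WT arrays did not overlap for 9 of 9 genes in any state. Among all 16489 genes tested, CKO arrays lay wholly above WT arrays for 8.08% in unstimulated cells, 10.3% in stimulated cells and 4.72% in Treg, and 157 genes (0.952%) were called higher in all 3 states. The median log2 difference of the 9 genes was 4.62, 4.59 and 4.33 in unstimulated, stimulated and Treg cells, against 0.01, -0.05 and 0.01 for all genes. On each of the 12 slide pairs every gene was higher on the CKO array, by 2.16 to 7.93 on the log2 scale. Normexp background correction was run with an offset of 50 added to every corrected signal, which compresses dim signals. With it the medians were 3.37, 1.31 and 1.08 and the arrays of 4 of the 9 genes did not overlap in Treg. For scale, the 75th percentile of processed signal was 32.5 to 119 on CKO Treg arrays. With RNA of a whole sorted sample, more cells with the RNA and more RNA per cell cannot be told apart.

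**Figure D1:**
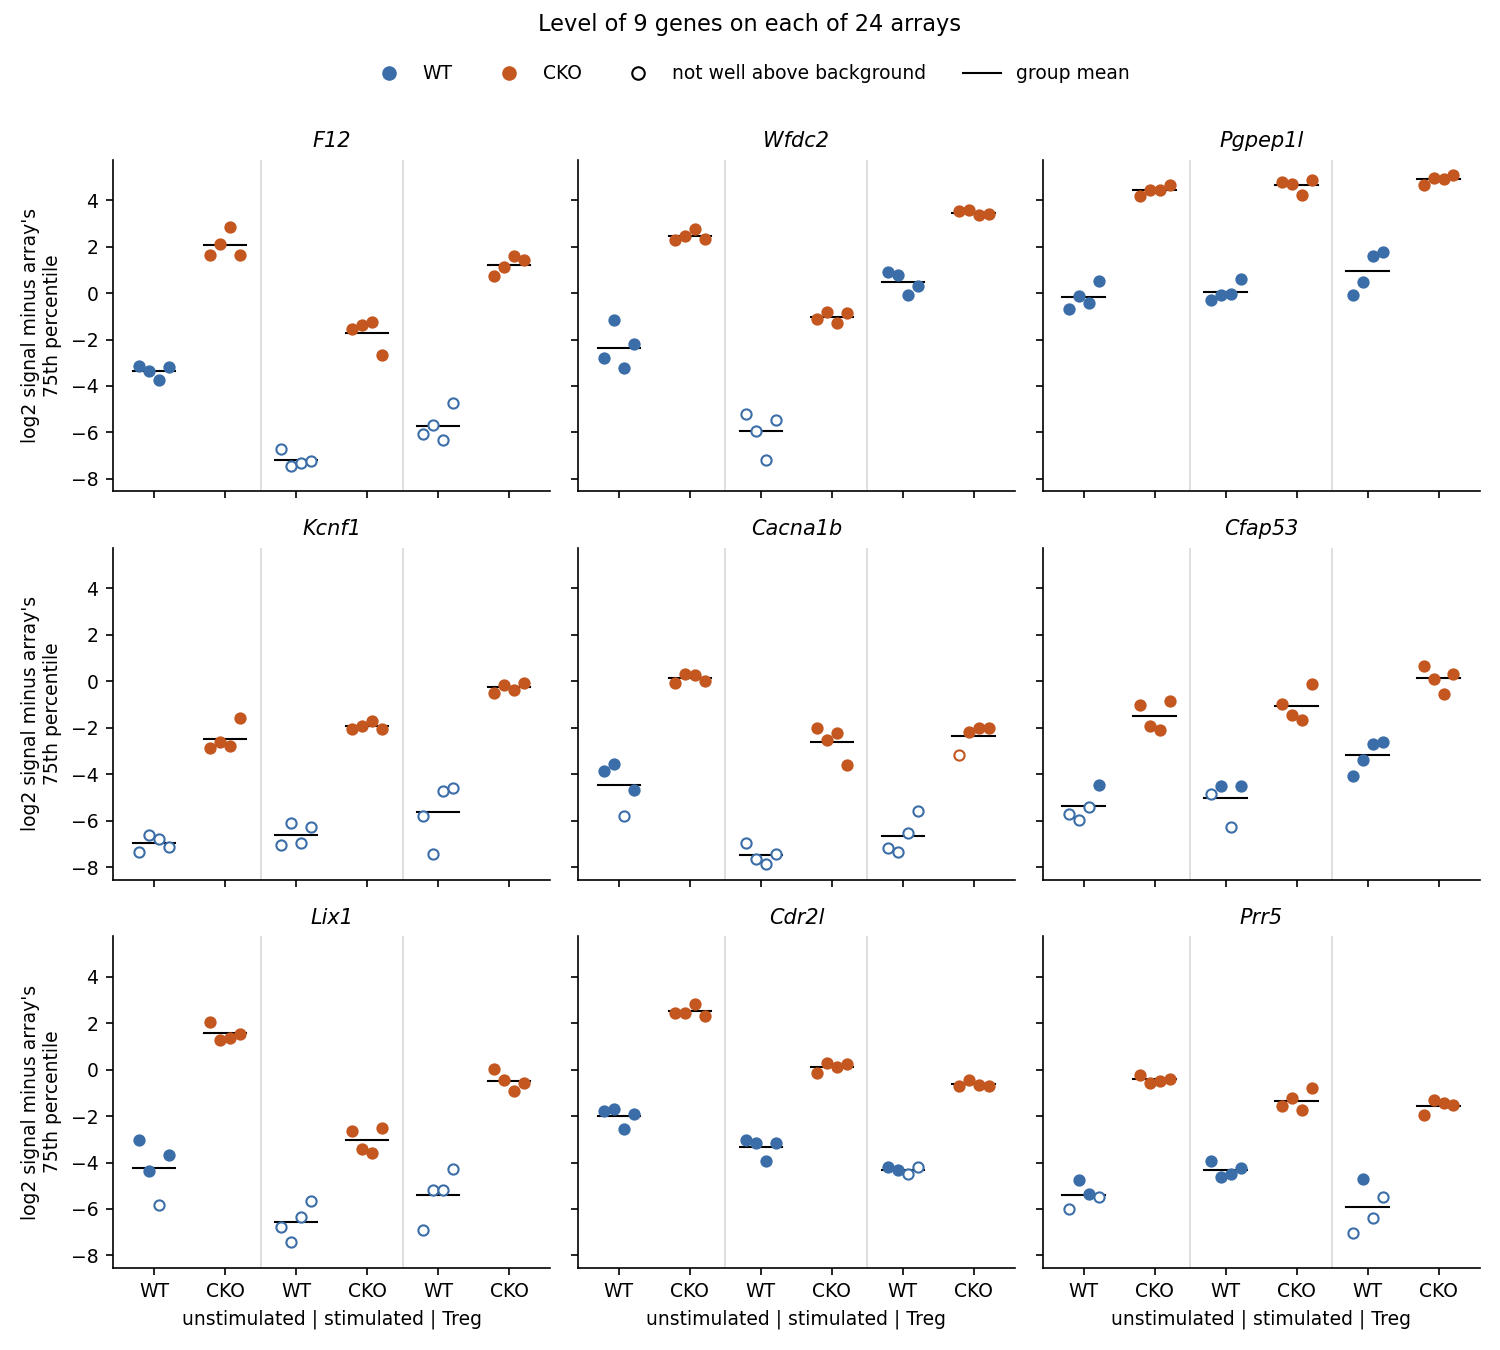
Level of each of the 9 genes on every array, as log2 of the signal minus the array's 75th percentile, for WT (blue) and CKO (orange) in unstimulated naive cells, stimulated naive cells and Treg; open circles are arrays where the probe was not well above background and lines are group means of 4 arrays. CKO arrays sit above WT arrays of the same state in every panel, and Kcnf1 was above background on none of the 12 WT arrays while Pgpep1l was on all 12.

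Detection in WT differed from probe to probe, which depends on the probe as well as on the gene. Pgpep1l was well above background on 12 of 12 WT arrays and Cdr2l on 10, Wfdc2 on 8, Prr5 and Cfap53 on 7, F12 on 4, Cacna1b and Lix1 on 3, and Kcnf1 on 0. Over the 9 genes, the probe was above background on 54 of 108 WT readings and on 107 of 108 CKO readings. The CKO count follows from the choice of genes and the probe filter, and is no result. Of all probes, 43.0% to 61.2% were above background on an array. The description of silent, tissue-foreign genes could therefore apply only where no WT array was above background. Those were Kcnf1 in every WT state, F12, Cacna1b and Lix1 in stimulated cells and Treg, and Wfdc2 in stimulated cells. A signal below background does not show that a gene is silent. The description did not hold where all 4 WT arrays were above background, as for Pgpep1l in every state. The same was seen for F12 and Wfdc2 in unstimulated cells and for Wfdc2 and Cfap53 in Treg. So it was for Cdr2l in both naive states and Prr5 in stimulated cells. Where a WT group was above background on no array, the difference is given as a lower bound, for which every WT array was given the larger of 2 values, the probe's own signal or that array's dimmest signal still called above background. These bounds hold for the scanner's processed signal only. With normexp background correction and its offset of 50 the genotype differences, on the probe used for each gene, were smaller than their bounds. Quantile normalization and the authors' deposited values each moved only 1 genotype difference of the 9 genes by more than its SD over slide pairs, Cdr2l in Treg (3.92). For F12 the log2 difference was then 1.31 in stimulated cells and 1.95 in Treg, and for Kcnf1 0.90 in unstimulated cells.

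F12 encodes the zymogen that, once active, cleaves plasma prekallikrein and factor XI. In unstimulated WT cells its log2 level was -3.15, -3.38, -3.76 and -3.18, and in unstimulated CKO cells 1.65, 2.12, 2.86 and 1.64. No WT array came near the CKO arrays, and the means (-3.37 ± 0.28 and 2.07 ± 0.57, SD, n = 4) differed 43.2-fold. After stimulation the CKO arrays read -1.53, -1.37, -1.26 and -2.65 while the WT probe was above background on no array, a difference of at least 11.8-fold. The CKO Treg arrays read 0.74, 1.11, 1.60 and 1.43, again with no WT array above background, a difference of at least 49.3-fold. Ordered by level, F12 was highest in CKO unstimulated cells, followed by CKO Treg, CKO stimulated and WT unstimulated cells, and none of these 4 groups overlapped the next.

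Wfdc2 encodes a secreted protein that belongs to a family of protease inhibitors. In unstimulated cells it read -2.79, -1.16, -3.24 and -2.18 in WT and 2.29, 2.46, 2.75 and 2.33 in CKO, a 27.9-fold difference. In Treg it read 0.89, 0.78, -0.06 and 0.32 in WT and 3.53, 3.57, 3.36 and 3.41 in CKO, a 7.91-fold difference. Here WT Treg were well above background on all 4 arrays, so the smaller fold went with a higher WT level. In stimulated cells WT was above background on no array and CKO read -1.12, -0.80, -1.28 and -0.84, at least 19.1-fold higher. WT Treg exceeded CKO stimulated cells for this gene, with no overlap of arrays, the only place among the 9 genes where a WT group stood above a CKO group.

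The summed level of epithelial markers was higher in CKO than in WT, as Wfdc2 was. In CKO naive cells the ranges of this sum with and without stimulation overlapped, while Wfdc2 was lower after stimulation. The summed level of 8 such markers, as a multiple of the 75th percentile, was 0.18 to 0.28 in WT and 0.42 to 0.69 in CKO unstimulated cells, 0.22 to 0.28 and 0.54 to 0.67 in stimulated cells, and 0.33 to 0.40 and 0.52 to 0.79 in Treg. Of the 8, Krt8, Cldn4 and Cldn7 were above background on no array of any group. Of the 3 that could be tested, Epcam was 4.78-fold, 2.94-fold and 3.58-fold higher in CKO (limma adjusted p = 5.42e-06, 2.65e-04 and 6.69e-05), and Cdh1 was 3.92-fold higher in unstimulated cells only by this test (0.0153; 0.996 in stimulated cells and 0.187 in Treg), with no test of the difference between states. Krt18 was not called in any state (-0.37 ± 0.36, 0.74 ± 0.36 and -0.88 ± 0.36; 0.483, 0.131 and 0.226). Their part in the result was not tested. For F12, 6 of 7 hepatocyte markers, Alb, Ttr, Apoa1, Apoa2, Fgb and Ahsg, were above background on no array of any group, and the summed level of the 7 was 0.19 to 0.47 in CKO and 0.18 to 0.46 in WT unstimulated cells.

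Pgpep1l, carried on the array under the older name C330024D12Rik, was above background in every group of either genotype. Unstimulated WT arrays read -0.68, -0.14, -0.44 and 0.50 and CKO arrays 4.19, 4.44, 4.43 and 4.67, a difference of 24.6-fold. Stimulated WT arrays read -0.28, -0.08, -0.04 and 0.62 and CKO arrays 4.79, 4.69, 4.24 and 4.87, a difference of 24.1-fold. Both pairs of groups lay at nearly the same levels with and without stimulation. WT Treg read -0.08, 0.48, 1.58 and 1.76 and CKO Treg 4.64, 4.96, 4.90 and 5.10, a difference of 15.6-fold. The CKO groups overlapped one another in the order Treg, stimulated, unstimulated, and so did the WT groups.

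Kcnf1 encodes a potassium channel subunit that forms no channel alone and modifies others, and its probe was above background on no WT array. CKO arrays read -2.87, -2.62, -2.79 and -1.57 in unstimulated cells, -2.07, -1.92, -1.72 and -2.04 in stimulated cells and -0.50, -0.14, -0.36 and -0.05 in Treg. CKO Treg lay above both naive CKO groups, which overlapped each other, and the bounds on the difference from WT were at least 7.30-fold, 10.1-fold and 17.6-fold. A further Kcnf1 probe, made from a transcript record placed on the opposite strand to the gene, was above background on 0 of 24 arrays and was not used.

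Cacna1b encodes the pore of the N-type calcium channel of nerve terminals. WT unstimulated arrays read -3.84, -3.56, -5.80 and -4.67, the third of them below the background limit, and CKO unstimulated arrays read -0.09, 0.31, 0.29 and 0.02, a 24.2-fold difference. The CKO arrays read -2.01, -2.53, -2.23 and -3.61 after stimulation and -3.15, -2.20, -2.002 and -1.99 in Treg, where the first was not above background. In those states WT was above background on no array and the bounds were at least 6.35-fold and 4.18-fold. A further probe of the gene gave a 15.8-fold difference in unstimulated cells and bounds of 1.87-fold and 1.41-fold in the other states.

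Of 8 neuronal markers, 2 were above background on 3 or more arrays in each of the 6 groups. Snap25, Syt1, Stmn2 and Gad1 were above background on no array of any group. The summed level of the 8 was 8.09 to 11.7 in WT and 7.97 to 10.2 in CKO unstimulated cells. It was 8.60 to 11.4 and 6.21 to 9.67 in stimulated cells and 8.78 to 20.4 and 10.9 to 23.7 in Treg. The ranges of the genotypes overlapped in each state. Ranges this wide cannot show a change as small as the levels of Kcnf1 and Cacna1b, and a part of neuronal cells in those levels was not tested.

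Cfap53, on the array as Ccdc11, encodes a protein of ciliary axonemes and basal bodies. WT unstimulated arrays read -5.71, -5.95, -5.41 and -4.48, of which only the last was above background, and CKO arrays -1.02, -1.94, -2.09 and -0.85, at least 13.1-fold higher with the undetected WT arrays at their floor. After stimulation WT read -4.85, -4.52, -6.26 and -4.52 and CKO -0.995, -1.46, -1.65 and -0.11, at least 14.2-fold higher in the same way, with WT detected on 2 arrays. In Treg WT read -4.06, -3.37, -2.71 and -2.61 and CKO 0.68, 0.10, -0.55 and 0.31, a 10.03-fold difference with all arrays above background. Within both genotypes Treg had the highest mean. Of 7 markers of ciliated cells, Tekt1 was above background on no array of any group. Their summed level overlapped between genotypes in each state (0.13 to 0.26 in WT and 0.17 to 0.23 in CKO unstimulated cells).

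Lix1 is known from embryonic tissues. In unstimulated cells WT arrays read -3.02, -4.38, -5.84 and -3.66, the third of them not above background, and CKO arrays 2.04, 1.30, 1.38 and 1.52, a 55.1-fold difference. After stimulation CKO arrays had dropped to -2.63, -3.41, -3.58 and -2.52, with WT above background on no array and a bound of 4.69-fold. CKO Treg stood between, at 0.03, -0.45, -0.91 and -0.59, at least 15.2-fold above WT. The other Lix1 probe was dimmer, with at least 21.5-fold and 4.47-fold in unstimulated cells and Treg, and in stimulated CKO cells it was above background on 1 array only.

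Cdr2l read -1.80, -1.69, -2.57 and -1.89 in WT and 2.45, 2.45, 2.85 and 2.30 in CKO unstimulated cells, a 22.6-fold difference. It read -3.03, -3.18, -3.95 and -3.16 in WT and -0.14, 0.29, 0.13 and 0.27 in CKO stimulated cells, an 11.03-fold difference. In Treg it read -4.20, -4.32, -4.49 and -4.19 in WT, above background on 2 arrays, and -0.72, -0.43, -0.64 and -0.72 in CKO, at least 10.5-fold higher with the other WT arrays at their floor. Its 6 groups followed each other with no overlap at any step, from CKO unstimulated, stimulated and Treg down to WT in the same order.

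Prr5 encodes a subunit of mTORC2, the complex that phosphorylates AKT. Its probe is named after the next gene, Arhgap8, in the array design, and was assigned to Prr5 by its RefSeq accession. WT unstimulated arrays read -6.00, -4.73, -5.35 and -5.48, 2 of them above background, and CKO arrays -0.23, -0.57, -0.50 and -0.39, at least 25.0-fold higher with the undetected WT arrays at their floor. After stimulation WT read -3.93, -4.62, -4.48 and -4.24 and CKO -1.54, -1.22, -1.76 and -0.80, a 7.93-fold difference. In Treg WT read -7.03, -4.69, -6.38 and -5.50, 1 of them above background, and CKO -1.94, -1.31, -1.42 and -1.54. With the 3 undetected WT arrays set at their floor, the CKO level was at least 6.68-fold higher. Arhgap8 has a probe of its own, 13.6 kb away in gene distance, and that probe was not called between genotypes in any state (log2 difference 0.45 ± 0.27, -0.35 ± 0.27 and 0.14 ± 0.27, SE; limma adjusted p = 0.247, 0.350 and 0.902).

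**Figure D2:**
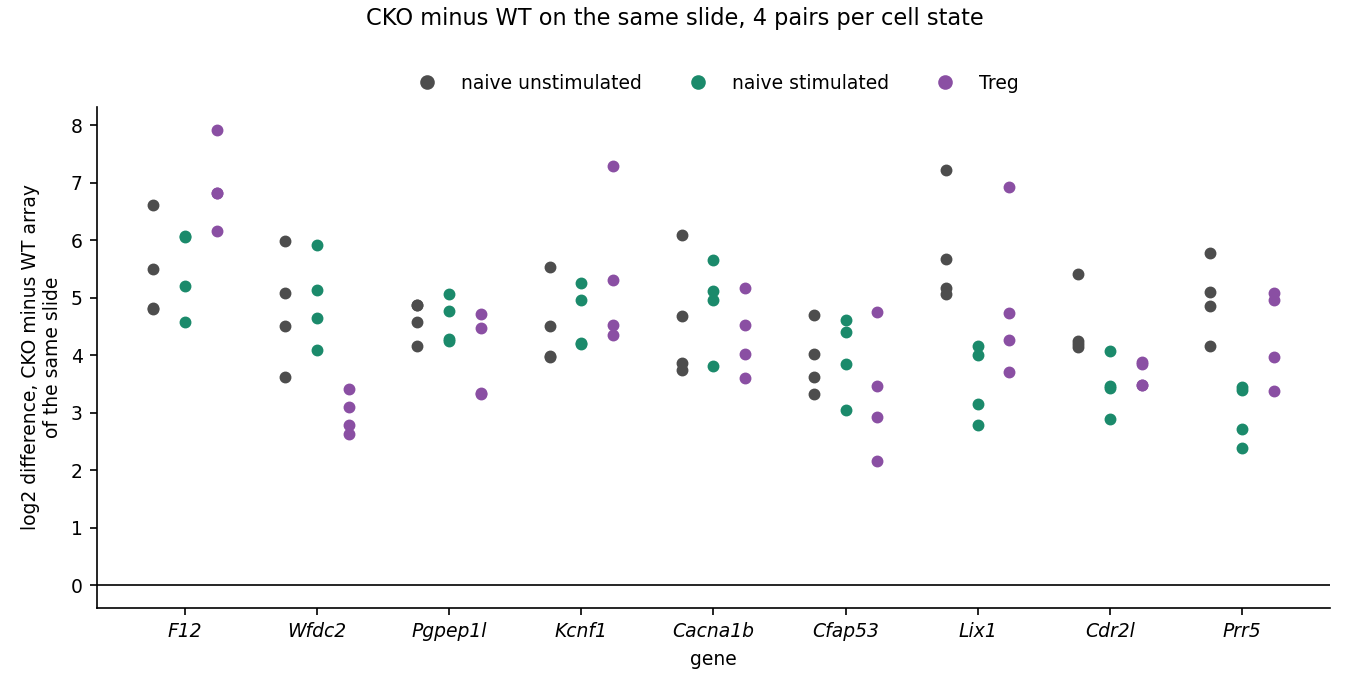
Log2 difference between the CKO and the WT array of the same slide for each gene, with 4 slide pairs for unstimulated naive cells (grey), stimulated naive cells (green) and Treg (purple). Every point lies above 0, from 2.16 for Cfap53 in Treg to 7.93 for F12 in Treg; points that rest on a WT reading below background are included.

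The states within the CKO were then compared, a contrast the choice of genes had not used. In CKO naive cells 6 of the 9 genes were lower after stimulation than before. Of all genes, 60.3% were called in this contrast, 30.2% lower and 30% higher. F12 was 13.6-fold lower after stimulation (log2 difference -3.77 ± 0.34, SE; limma adjusted p = 7.10e-09), Lix1 24.1-fold (-4.59 ± 0.53; 2.06e-07) and Wfdc2 11.1-fold (-3.47 ± 0.38; 9.21e-08). Cacna1b was 6.62-fold lower (-2.73 ± 0.45; 2.06e-05) and Cdr2l 5.19-fold (-2.38 ± 0.20; 1.66e-09). For these 5 genes and Prr5 all 4 stimulated arrays lay below all 4 unstimulated arrays, as they did for 28.3% of all genes. Prr5 was 1.88-fold lower (-0.91 ± 0.36; limma adjusted p = 0.0333). That call was lost when any of CKO unstimulated replicates 1, 3 and 4 or CKO stimulated replicates 1 and 3 was left out (0.0105 to 0.0975 over the 24 arrays left out in turn), with the slide as a block (-0.59; 0.140) and with normexp background correction (-0.55; 0.138).

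The other 3 genes did not pass the test. Kcnf1 differed by 0.53 ± 0.43 (limma adjusted p = 0.302), Cfap53 by 0.42 ± 0.45 (0.431) and Pgpep1l by 0.21 ± 0.32 (0.587), and their stimulated and unstimulated CKO arrays overlapped. These p-values do not show that their levels were equal.

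Between CKO Treg and CKO unstimulated naive cells the genes parted in both directions. Kcnf1 was 4.61-fold higher in Treg (2.20 ± 0.43; limma adjusted p = 8.43e-04) and Cfap53 3.06-fold higher (1.61 ± 0.45; 0.0109). Cdr2l was 8.81-fold lower (-3.14 ± 0.20; 3.59e-10), Cacna1b 5.53-fold (-2.47 ± 0.45; 3.77e-04), Lix1 4.11-fold (-2.04 ± 0.53; 0.00696) and Prr5 2.19-fold lower (-1.13 ± 0.36; 0.0226). Prr5 was no longer called with normexp correction (-0.33; 0.299), without CKO unstimulated replicate 1 (0.0602) or without CKO Treg replicate 1 (0.0568). In all, 2 genes were called higher and 4 lower, where 28.2% of all genes were called, 11.7% higher and 16.5% lower. F12 (-0.84 ± 0.34; 0.0723), Wfdc2 (1.01 ± 0.38; 0.0501) and Pgpep1l (0.47 ± 0.32; 0.290) did not pass, and for F12 and Wfdc2 the arrays of the 2 groups did not overlap, as for 17.9% of all genes in the lower and 13.1% in the higher direction. Both lay near the threshold. Wfdc2 passed under 8 of 12 alternatives (among them quantile normalization, 1.22; 0.0128) and F12 under 2, normexp correction (-0.97; 0.0247) and array weights (-0.89; 0.0267).

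**Figure D3:**
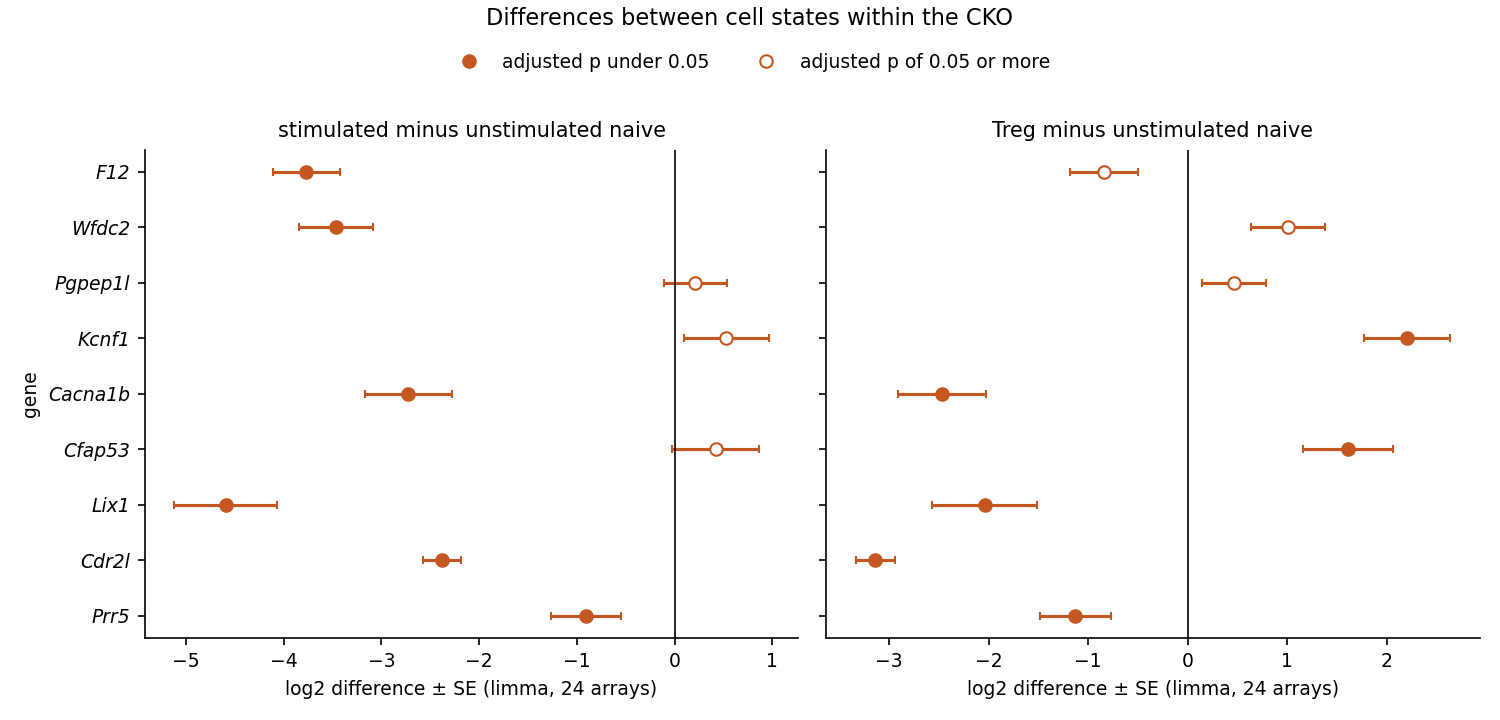
Log2 differences with SE between cell states within the CKO, stimulated minus unstimulated naive cells (left) and Treg minus unstimulated naive cells (right), from the fit to 24 arrays; filled points have adjusted p under 0.05. F12, Wfdc2, Cacna1b, Lix1, Cdr2l and Prr5 lie below 0 on the left, and only Kcnf1 and Cfap53 are filled above 0 on the right.

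CKO Treg were also set against CKO stimulated naive cells, the other CKO group that the labels call TCR-stimulated. Wfdc2 was 22.3-fold higher in Treg (4.48 ± 0.38; limma adjusted p = 1.78e-09), F12 7.60-fold (2.93 ± 0.34; 2.28e-07), Lix1 5.87-fold (2.55 ± 0.53; 2.45e-04) and Kcnf1 3.19-fold (1.67 ± 0.43; 0.00197). Cfap53 was 2.28-fold higher (1.19 ± 0.45; 0.0239), with overlapping arrays, and missed the threshold without CKO stimulated replicate 2 or 3 or CKO Treg replicate 1 or 4 (0.0506 to 0.0769) and with the slide as a block (0.93; 0.0520). Cdr2l was 1.70-fold lower (-0.76 ± 0.20; 0.00186), a call lost with normexp correction (-0.41; 0.136) and with scaling on shared probes (-0.44; 0.0514). Cacna1b, Prr5 and Pgpep1l were not called. So 5 of 9 genes were called higher and 1 lower, against 34.4% and 33.4% of all genes (67.8% together).

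In WT cells several of the same comparisons could be made only as bounds. After stimulation lower levels were called for Wfdc2 (at least 7.56-fold; limma adjusted p = 3.78e-08), F12 (at least 3.72-fold; 4.41e-09), Lix1 (at least 2.05-fold; 6.16e-04) and Cacna1b (at least 1.74-fold; 4.93e-06), with the stimulated group above background on no array. Cdr2l, measured on all WT naive arrays, was 2.54-fold lower (-1.34 ± 0.20; 4.21e-06). Prr5 was called 2.11-fold higher (1.08 ± 0.36; 0.0123), with unstimulated WT cells above background on 2 arrays and the call lost without WT unstimulated replicate 1 (0.0519). Hence 5 of 9 genes were called lower and 1 higher in WT, against 30.1% and 31.8% of all genes (61.9% together). With normexp correction, which lifts dim signals, only Wfdc2 was still called among the 9.

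In WT Treg against WT unstimulated naive cells Wfdc2 was 7.09-fold higher (2.83 ± 0.38; limma adjusted p = 8.83e-06) and Pgpep1l 2.18-fold higher (1.13 ± 0.32; 0.00744), both measured on all arrays of both groups. The Pgpep1l call was lost when only the arrays compared were fitted (0.0740). Cfap53 was called 4.59-fold higher (2.20 ± 0.45; 6.37e-04), with 1 WT naive array above background. Cdr2l was called 4.98-fold lower (-2.32 ± 0.20; 1.82e-08), with 2 WT Treg arrays above background. F12 was lower in Treg by at least 2.05-fold (2.81e-05), although normexp turned the sign of this difference (0.71; 0.0539), as it did for Cdr2l (0.16; 0.549). Cacna1b was called lower too (6.07e-04), although its bound gives no fold and normexp turned its sign (0.80). Kcnf1 was above background in neither group, so its call (0.0159) is not counted. That left 3 genes called higher and 3 lower, against 18.8% and 29.9% of all genes (48.7% together).

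Whether the effect of genotype differed with stimulation can be read for 2 genes, those detected on 3 or more arrays in each of the 4 naive groups. The genes were chosen on the genotype differences that make up these interactions, so the p-values are given as a description. For Cdr2l the difference between genotypes was smaller after stimulation, by a log2 interaction of -1.03 ± 0.28 (limma adjusted p = 0.0411). Of all genes 3.45% were called, 1.31% with a negative and 2.14% with a positive value. It missed the threshold in 11 of 24 fits that left out 1 array (-1.24 to -0.84; limma adjusted p 0.00814 to 0.102), namely WT unstimulated replicate 3, WT stimulated replicates 1, 2 and 4, CKO unstimulated replicates 1, 2 and 3, CKO stimulated replicates 1, 2 and 3 or WT Treg replicate 2. It also missed it under 5 of 12 alternatives: the slide as a block (0.055), scaling on shared probes (0.055), no filter (0.101), only the arrays compared (0.0955) and without the dimmest Treg arrays (0.0526). For Pgpep1l the interaction was -0.03 ± 0.45 (0.984). Prr5 was called too (-1.98 ± 0.50; 0.0305) but with WT unstimulated cells above background on 2 of 4 arrays only, and it missed the threshold in 10 of 24 such fits. Between Treg and unstimulated naive cells limma called 0 of 9 interactions, against 0.406% of all genes (0.249% positive and 0.158% negative), and 3 of 9 had an unadjusted p under 0.05. Of those readable there, Wfdc2 gave -1.82 ± 0.53 (0.155) and Pgpep1l -0.66 ± 0.45 (0.517).

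Over the 12 CKO arrays the 9 genes fell into patterns, given here as a description because the 3 states shape each correlation. Cdr2l and Prr5 were the most alike pair (Pearson r = 0.90, n = 12 arrays), and F12 followed Lix1 and Wfdc2 (0.87 each). Cacna1b followed Cdr2l (0.87), F12 (0.74), Lix1 (0.76) and Prr5 (0.74). Kcnf1, Pgpep1l and Cfap53 went with one another (0.66 to 0.78) and opposite to Cdr2l (-0.80 to -0.65). Wfdc2 correlated little with Cdr2l (0.08) and Prr5 (0.12), with CKO Treg its highest CKO group and their lowest.

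**Figure D4:**
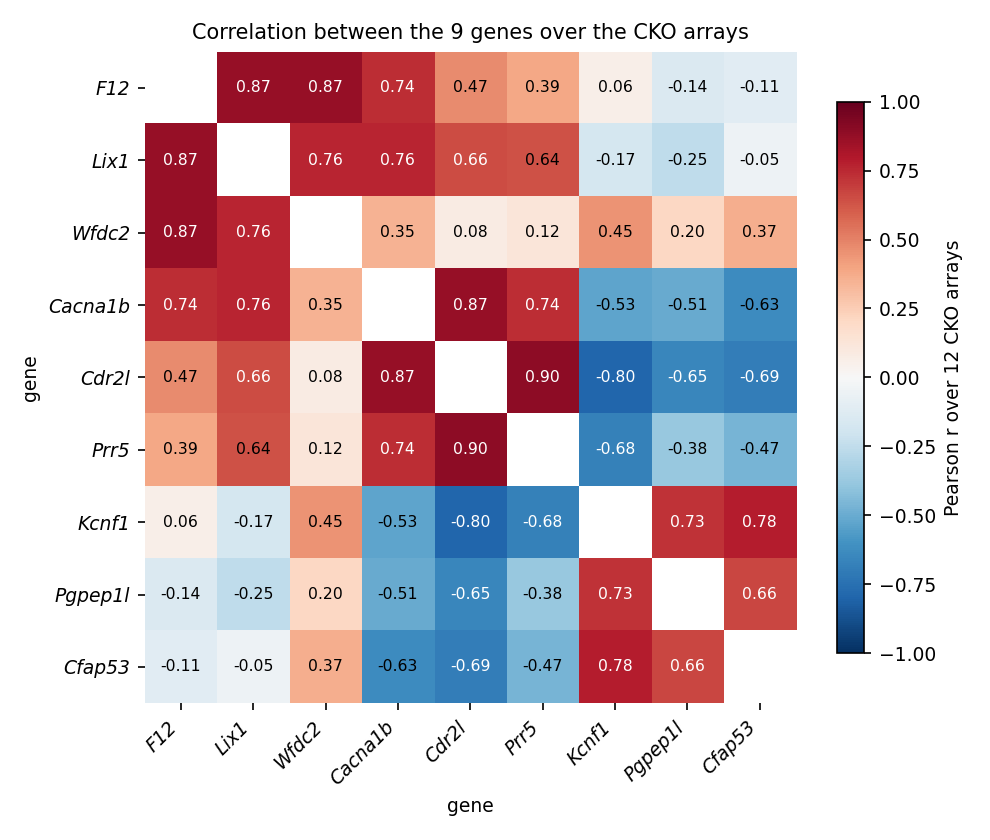
Pearson correlation between the levels of each pair of the 9 genes over the 12 CKO arrays, which hold 3 cell states of 4 arrays. Kcnf1, Pgpep1l and Cfap53 are positively correlated with one another (0.66 to 0.78), and the most opposed pair is Kcnf1 and Cdr2l (-0.80).

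Over all 24 arrays the genes with the most similar profiles were partly members of the set themselves, which were all selected on the same genotype difference. For F12 they were Dop1b (r = 0.96), Cacna1b (0.96) and Upk1b (0.96), and for Lix1 Dop1b (0.95), F12 (0.95) and Upk1b (0.94). Kcnf1, Pgpep1l and Cfap53 each had the other 2 and Mbd1 as their nearest profiles (0.94 to 0.96). Cacna1b was nearest to F12, Cdr2l (0.95) and Lix1 (0.93), Cdr2l to Cacna1b, Sytl3 (0.94) and Lrrc6 (0.92), Prr5 to Sytl3 (0.94), Nars2 (0.92) and Mindy3 (0.92), and Wfdc2 to Cxcr5 (0.97), Vps54 (0.96) and Rims3 (0.95). Over the 12 CKO arrays alone the nearest were other genes: Cpt1a, Phf6 and Khdc3 for F12 (0.98 to 0.99), Arl4c, Themis and Rasgrp2 for Lix1 (0.99 to 1.00), Trim14, Mgst2 and Oas1f for Wfdc2 (0.99 to 1.00), Ikzf4, Prnp and Hbegf for Kcnf1 (0.95 to 0.97), Ggt5, Adh1 and Tnfrsf1a for Cdr2l (0.98), Man2c1, Pde7a and Mark2 for Cacna1b (0.95 to 0.97), Siah1b, Terf2 and Bcr for Prr5 (0.96), Ly6k, Wdr82 and Bmpr2 for Cfap53 (0.94 to 0.98), and P4ha1 (0.92) and Tars2 (0.82) for Pgpep1l.

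The genes lie on 8 chromosomes (GRCm38.p6): F12 at chr13:55417958-55426804, Wfdc2 at chr2:164562715-164568510, Pgpep1l at chr7:68235521-68264484, Kcnf1 at chr12:17172100-17176888, Cacna1b at chr2:24603860-24763200, Cfap53 at chr18:74283100-74359984, Lix1 at chr17:17402686-17459387, Cdr2l at chr11:115381871-115396135 and Prr5 at chr15:84663206-84706409. The nearest protein-coding genes, up to 3 on each side, were not used in the choice and were tested between genotypes. Of 54 such neighbours 34 passed the filter. In unstimulated cells 2 were called higher and 2 lower (11.8% of the 34, against 18.8% of all genes), in stimulated cells 3 higher and 4 lower (20.6% against 24.2%) and in Treg 2 higher and 2 lower (11.8% against 4.4%). The median log2 difference of the neighbours was 0.08, -0.03 and 0.05, so the large differences of the 9 genes did not extend to most of the genes beside them.

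Mbd1 and Hid1 were called in all 3 states. Mbd1 encodes a methyl-CpG binding protein and lies 0.363 kb from Cfap53. Its WT arrays read 2.86, 2.89, 3.08 and 3.18 unstimulated and 2.49, 2.72, 2.90 and 2.95 stimulated, against 4.19, 3.90, 3.79 and 4.44 and 4.24, 4.16, 3.95 and 4.82 in CKO. No arrays overlapped, and Mbd1 was higher in CKO by 1.08 ± 0.18 (limma adjusted p = 5.06e-04), 1.53 ± 0.18 (6.60e-06) and, in Treg, 1.20 ± 0.18 (1.63e-04). With normexp correction it was not called in unstimulated cells (1.03; 0.0674) or Treg (1.22; 0.0823). Myo5b, on the other side of Cfap53, was not called in any state (1.76 ± 0.82, 1.44 ± 0.82 and 1.78 ± 0.82; limma adjusted p = 0.134, 0.204 and 0.324).

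Hid1, which encodes a protein of the Golgi and of secretory granule formation, lies 14.1 kb from Cdr2l and went the opposite way to it. WT unstimulated arrays read 0.30, 0.31, 0.56 and 0.21 and CKO arrays -3.06, -2.76, -2.67 and -2.41, a difference of -3.07 ± 0.42 (5.18e-05). After stimulation it was called lower in CKO (-1.75 ± 0.42; 0.00573) with overlapping arrays, 3 WT and 2 CKO arrays being above background. In CKO Treg it was above background on no array and at least 1.69-fold lower than in WT (8.94e-05). In both of these states normexp correction left no call (-0.08; 0.874, and -0.21; 1.00). The neighbour on the other side, Mrpl58, was not called in any state.

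**Figure D5:**
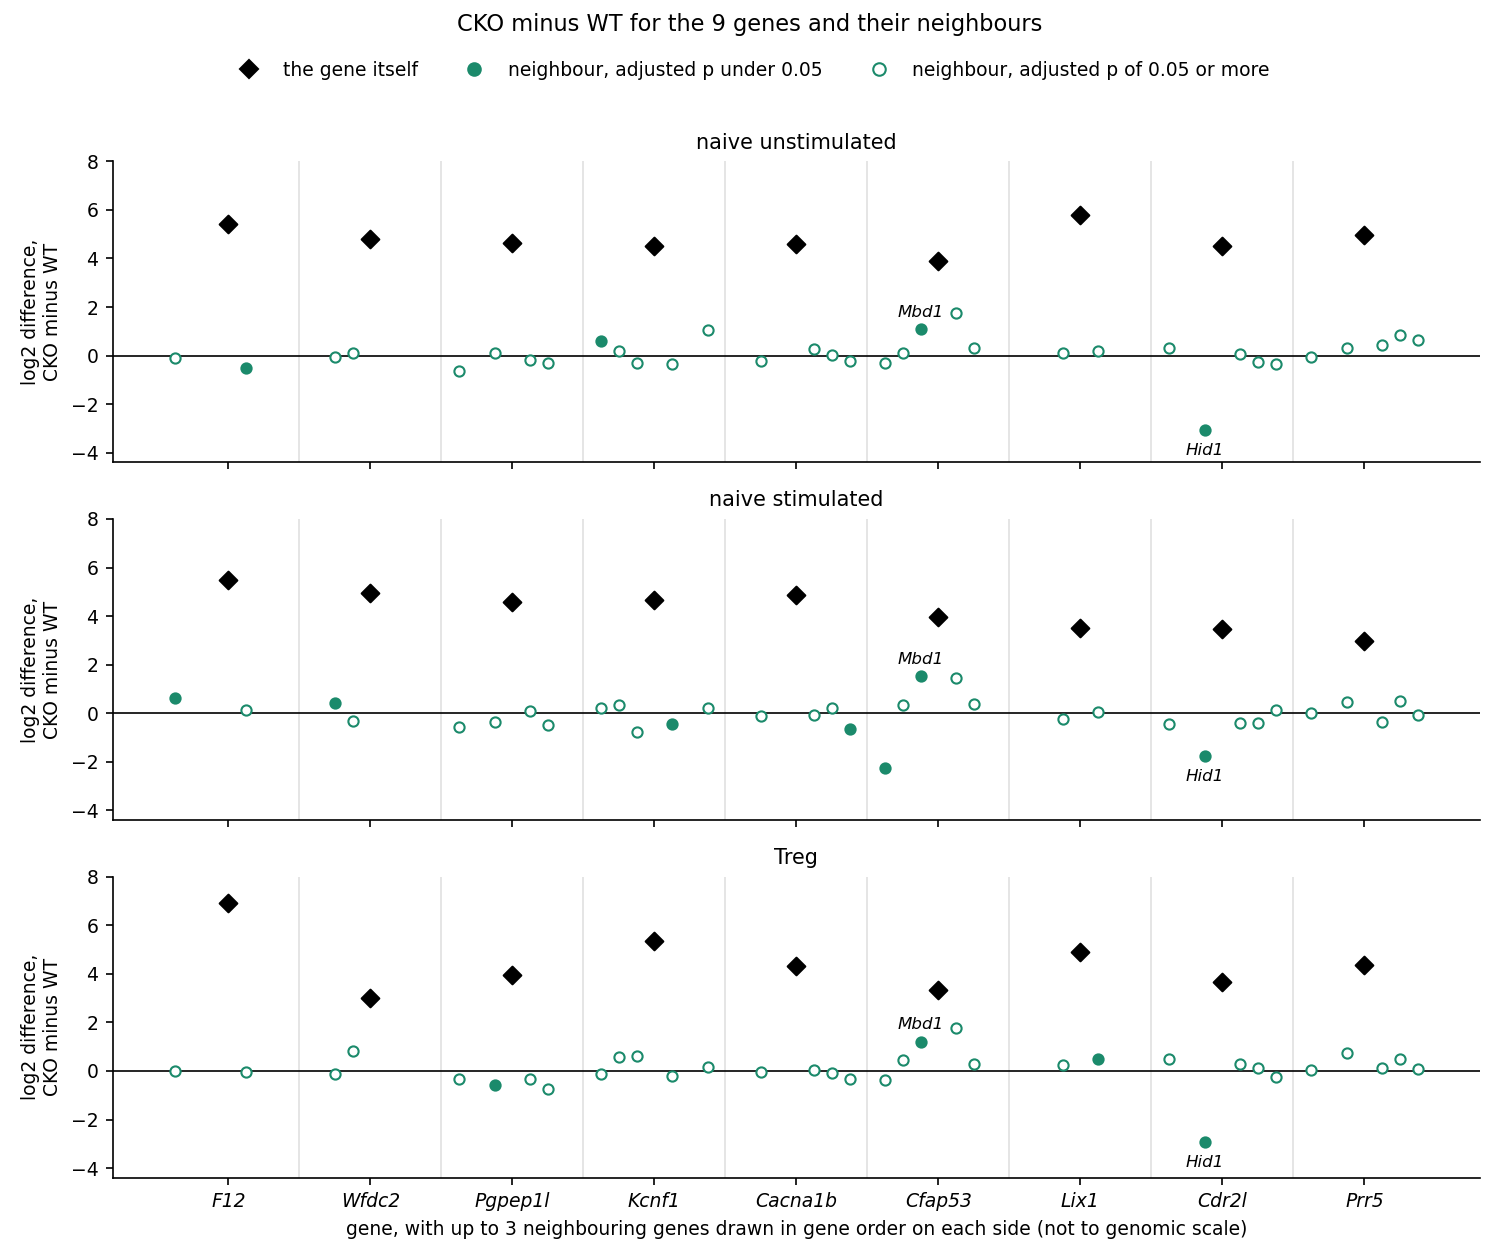
Log2 difference between CKO and WT for the 9 genes (black diamonds) and for their tested neighbours (circles, filled where adjusted p is under 0.05), one panel for each cell state and neighbours in gene order. The diamonds lie between 2.98 and 6.93, and most circles lie within 1 of 0. Mbd1 and Myo5b lie above 1 in each panel and Nol10 in the first, Hid1 lies below -1 in each panel and Ska1 in the second; differences that rest on a group below background are drawn at their fitted value.

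The remaining called neighbours were called in 1 state each. In unstimulated cells Rock2, a kinase gene 3 genes away from Kcnf1, was higher (0.61 ± 0.17; limma adjusted p = 0.0179) and Grk6, beside F12, lower (-0.51 ± 0.10; 0.00231). In stimulated cells Rgs14 near F12 (0.63 ± 0.14; 0.00266) and Dbndd2 near Wfdc2 (0.43 ± 0.11; 0.00792) were higher, and Pdia6 beside Kcnf1 (-0.43 ± 0.12; 0.0160), Zmynd19 near Cacna1b (-0.63 ± 0.19; 0.0202, overlapping arrays) and Ska1 near Cfap53 (-2.25 ± 0.56; 0.00751) were lower. In Treg Lnpep beside Lix1 was higher (0.47 ± 0.12; 0.0260) and Igf1r, 1.85 kb from Pgpep1l, lower (-0.58 ± 0.14; 0.0167). These differences were small beside those of the 9 genes, except for Ska1. Whether any of these calls differed between states was not tested.

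Partners and relatives of the 9 genes were tested between genotypes as well: the contact and coagulation system, voltage-gated potassium and calcium channels, pyroglutamyl peptidases and cyclases, paralogs of LIX1 and CDR2, motile cilia, mTORC2 and its substrates, and genes with a whey acidic protein domain. In unstimulated cells 6 of 75 were called higher and 6 lower, against 7.78% and 11% of all genes. In stimulated cells 10 were higher and 5 lower, against 11.7% and 12.5%, and in Treg 6 were higher and 2 lower, against 2.57% and 1.83%. Their median differences were 0.07, -0.03 and -0.04. The lists were chosen with earlier results of these arrays known, and their counts are a description.

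Of 14 tested genes of the contact and coagulation system, Plaur, the urokinase receptor, was higher in all 3 states (1.87 ± 0.32, 1.88 ± 0.32 and 1.46 ± 0.32; limma adjusted p = 5.45e-04, 3.38e-04 and 0.00709), with no overlap of arrays. The call in Treg was lost with normexp correction (1.32; 0.0847). Proc was higher in stimulated cells (1.73 ± 0.37; 0.00245) with 1 WT array above background, Pros1 was lower in stimulated cells (-0.75 ± 0.22; 0.0195) and Plat lower in unstimulated cells (-0.95 ± 0.27; 0.0190). Among 13 potassium channel genes Kcna2 was higher in unstimulated (2.60 ± 0.38; 1.05e-04) and stimulated cells (2.24 ± 0.38; 3.29e-04) and not called in Treg (0.44 ± 0.38; 0.714). With normexp correction its stimulated difference was 0.80 (0.0542). Kcna7 was higher (1.32 ± 0.32; 0.00868) and Kcnh2 lower (-1.34 ± 0.29; 0.00403) in unstimulated cells, where Kcnc1, above background on no CKO array, was at least 1.31-fold lower (0.0207). Among 9 calcium channel subunit genes Cacna2d2 was lower in unstimulated (-1.61 ± 0.30; 0.00154) and stimulated cells (-1.02 ± 0.30; 0.0204). Cacnb3 was higher (1.75 ± 0.34; 0.00138) and Cacng8 (-0.82 ± 0.24; 0.0168) and Cacnb1 (-0.49 ± 0.18; 0.0466) lower in stimulated cells.

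Among 16 motile cilia genes Ak7, an adenylate kinase of axonemes, stood out in size. WT unstimulated arrays read -4.33, -3.88, -3.79 and -4.06 and CKO arrays 0.75, 0.35, -0.03 and 0.53, a difference of 4.42 ± 0.19 (limma adjusted p = 2.30e-12), and in Treg it differed by 4.08 ± 0.19 (4.36e-12). In stimulated cells WT reached 1.44, 1.72, 1.82 and 1.73 and CKO 1.92, 1.98, 1.53 and 2.23, which overlapped (0.24 ± 0.19; 0.361). Dnah9, an axonemal dynein, was higher in all 3 states (1.78 ± 0.31, 1.24 ± 0.31 and 1.18 ± 0.31; 8.43e-04, 0.00809 and 0.0312), and Rsph9 in stimulated cells (1.74 ± 0.39; 0.00365). In stimulated WT cells each was above background on 1 array. Spag16 was at least 1.24-fold lower in CKO Treg (4.84e-05), where it was above background on no array. In the other lists Oplah, the enzyme that opens the 5-oxoproline ring, was higher in all 3 states (0.74 ± 0.16, 1.40 ± 0.16 and 1.35 ± 0.16; 0.00463, 4.82e-06 and 9.61e-06), a call lost in unstimulated cells with normexp correction (0.67; 0.0512). Ggct was lower in unstimulated cells (-0.60 ± 0.18; limma adjusted p = 0.0302) and Qpctl in Treg (-0.87 ± 0.23; 0.0348). Qpct was called higher in stimulated cells and Treg but was above background on at most 1 array of a group. Wfdc1, a relative of Wfdc2, was higher in Treg (0.95 ± 0.26; 0.0357) with overlapping arrays. Cdr2, the paralog of Cdr2l, was lower in unstimulated cells (-1.03 ± 0.20; 0.00202), the opposite direction to Cdr2l. Of the 14 genes of mTORC2 and its substrates, limma called 0 in unstimulated cells (6 with unadjusted p under 0.05) and 0 in Treg (2 such), and in stimulated cells Sgk1 (0.87 ± 0.25; 0.0179) and Rictor (0.56 ± 0.16; 0.0164) were higher and Akt1 lower (-0.45 ± 0.13; 0.0201).

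B cell and myeloid RNA was present in the naive sorts and varied between arrays. The summed level of 7 B cell markers was 6.65 to 25.6 in WT and 16.5 to 56.9 in CKO unstimulated cells, 0.47 to 2.75 and 1.44 to 5.77 in stimulated cells, and 3.80 to 9.24 and 4.33 to 12.4 in Treg. These ranges overlapped. The median log2 difference of the 7 markers, CKO minus WT, was 1.26 in unstimulated cells, 1.66 in stimulated cells and 0.23 in Treg. Of the 7, 1 was called higher in unstimulated cells, 2 in stimulated cells and 0 in Treg, and 0 were called lower in any state. Myeloid markers summed to 12.6 to 50.2 in WT and 21.9 to 48.2 in CKO unstimulated cells and to 0.51 to 3.37 and 0.99 to 11.5 in stimulated cells. Their median differences were 0.57, 0.83 and 0.16 in unstimulated, stimulated and Treg cells, with 0 of 7 called in each. The fall of both sets with stimulation is in the same direction as that of F12, Lix1, Wfdc2, Cacna1b and Cdr2l. Their median differences between genotypes are in the same direction as those of the 9 genes. The part of both sets in either result was not tested.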

How the data were processed

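RNA of 24 samples was hybridised to single-colour Agilent arrays, and per the file headers the deposited intensities are the scanner's processed signal, background-subtracted and detrended, with low values replaced by surrogates, and not normalized between arrays. Agilent Feature Extraction 9.5 is named in the submitters' processing notes. The authors' deposited value table, of linear intensities with one distribution per array and an unstated normalization, served as an alternative. From the deposited intensities log2 values were computed and the 75th percentile of each array subtracted; outlier-flagged spots were dropped and a probe's remaining spots averaged. The brightest kept probe stood for a gene. Probes were named by RefSeq accession, then symbol, then synonym, then the array's own name. Limma 3.58.1 (R 4.3.3; lmFit, eBayes) fitted 1 mean per group to the 24 arrays, with Benjamini-Hochberg adjustment over 16489 genes and a threshold of 0.05, and the code was tested on simulated data. Members, neighbours and lists were chosen with earlier results of these data known; members, called neighbours and called relatives are named, and likeness is Pearson's r over arrays, 3 genes each, of which 1 is not reported here. WT and CKO samples of the same replicate number shared a slide but were not taken as pairs in the main fit. The correlation of their deviations from group means was above 0.1 for 6 of 12 pairs (-0.31 to 0.46), which does not decide whether they were paired otherwise. Alternatives were quantile, shared-probe and normexp (offset 50) scaling, filters, probe means, blocks, array weights, fewer arrays and each array left out.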

Additional observations from a re-analysis of the deposited data

Results flagged for a closer look

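Cdr2l read -3.95 in WT stimulated replicate 3, the lowest of its group, while the nearest of the other 3 arrays read -3.18 and the highest -3.03. Of 54 groups of 4 arrays looked at, this was the only 1 in which an array stood that far from the rest, and chance alone gives about 1 in 20. Without this array the genotype by stimulation interaction of Cdr2l was -1.24 (limma adjusted p = 0.00814; 0.00814 to 0.102 over the arrays left out in turn).

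For Cdr2l the difference between genotypes was smaller after stimulation than before (interaction -1.03 on the log2 scale; limma adjusted p = 0.0411), with all 4 groups above background on every array. The call was lost in 11 of 24 fits that left out 1 array and under 5 of 12 alternatives, so it lies near the threshold. The gene was also chosen on the genotype differences that make up this interaction, so the p-value is a description.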

How the results depend on the processing

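The 9 genes kept non-overlapping CKO and WT arrays in all 3 states whichever array was left out (9 to 9), with medians of 4.54 to 4.90, 4.48 to 4.78 and 3.97 to 4.48; averaging the kept probes gave 3.98 in stimulated cells. Over the arrays left out, 5 to 6 members were called after stimulation in CKO, 5 to 6 in WT, 5 to 7 between CKO Treg and naive cells, 6 to 8 in WT (Kcnf1 counted), 5 to 6 between CKO Treg and stimulated cells, 0 to 2 for the interaction with stimulation and 0 to 1 for that with cell type (1 without WT unstimulated replicate 2). Neighbours called ranged over 3 to 11, 5 to 10 and 2 to 6, and related genes over 9 to 20, 8 to 17 and 4 to 9. The counts moved by over 1.5 times without WT unstimulated replicate 4 (11 neighbours, 20 related genes), CKO stimulated replicate 3 (8 related genes), WT Treg replicate 2 (4 related genes), CKO Treg replicates 1 or 3 (5 related genes), and WT Treg replicate 4 or CKO Treg replicates 1 or 2 (2 neighbours).

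Normexp correction gave medians of 3.37, 1.31 and 1.08, 4 non-overlapping members in Treg, 1 member called after stimulation in WT, 4 and 2 interactions, 1, 3 and 0 neighbours (limma) and 4, 4 and 2 related genes. It turned 7 signs: WT Treg against naive for F12 (0.71), Cacna1b (0.80), Lix1 (0.84), Cdr2l (0.16) and Prr5 (1.06), and the stimulation interaction of F12 (-2.33) and Wfdc2 (-1.98). The same offset of 50 was added on every array, while the 75th percentile of processed signal was 55.6 to 208 for WT Treg and 160 to 382 for naive cells. The part of the offset in the turned signs was not tested. Quantile normalization and the authors' values each gave 1 cell type interaction and 7 neighbours in unstimulated cells. Scaling on shared probes gave 1 stimulation interaction and 7 and 11 neighbours in unstimulated and stimulated cells. Without a filter there were 0 stimulation interactions, with 2 neighbours and 5 related genes in Treg, and more genes tested. Fitting only the arrays compared gave 1 interaction and 4 related genes in Treg, and the slide as a block 1 interaction. With array weights there were 1 cell type interaction, 13 and 15 neighbours and 30 and 24 related genes in unstimulated and stimulated cells. Without the dimmest arrays, WT Treg replicate 4 and CKO Treg replicate 1, an alternative chosen after seeing the data, there were 1 stimulation interaction and 2 neighbours in Treg. With the replicate number as a block, 7 neighbours were called in Treg and Wfdc2 passed between CKO Treg and naive cells (0.0274, limma adjusted p). Whether the numbers paired the samples beyond the slide is not known. Of these arrays the CKO Treg set was the dimmest, and bounds rather than folds are what WT readings below background allow.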
